A study of Homo sapiens with 9 samples.

Results

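CEACAM6, a cell surface glycoprotein held in the outer leaf of the membrane by a lipid anchor, carried most of the counts of a set of 5 human carcinoembryonic antigen-related cell adhesion molecule (CEACAM) genes in EGI-1 cells, and its level with either FOSL1 hairpin was below that with a GFP hairpin. CEACAM1, CEACAM5 and CEACAM19 were read at low counts, and CEACAM7 had no count in any library. The 5 genes were selected from earlier results of these same libraries, in which CEACAM6 was already among the genes lower with both hairpins. They are 5 of the 58381 genes in the files, matched by Ensembl identifier, and 4 of the 5 passed the filter on low counts. Because the CEACAM6 difference from the GFP hairpin is what put the family forward, its values are given below as a description with no p-value. No source names the values that put the other 4 genes on the list.

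EGI-1 is an established line from an extrahepatic bile duct cancer (cholangiocarcinoma). All cells carried a TET-inducible hairpin vector, were seeded for 24 h and were given 2 ug/ml doxycycline for 4 days, so the controls had the vector and the drug too. The groups were FOSL1sh3 and FOSL1sh10, carrying different hairpins against FOSL1, and GFPsh, carrying a hairpin against GFP, with 3 libraries each. The labels do not say that the 3 libraries of a group came from separate cultures, so the p-values measure the spread between these libraries, which may be technical.

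The CEACAM family belongs to the immunoglobulin superfamily and lies with the pregnancy-specific glycoprotein (PSG) genes in clusters on chromosome 19. CEACAM5 (the antigen CEA), CEACAM6 and CEACAM7 are attached by a glycosylphosphatidylinositol (GPI) anchor, while CEACAM1 and CEACAM19 span the membrane, and CEACAM1 can carry inhibitory tyrosine motifs in its tail. The proteins bind one another between neighbouring cells, and CEACAM5 and CEACAM6 are often abundant in carcinomas of glandular epithelium, the bile duct included. FOSL1 encodes FRA-1, a FOS-type partner in the AP-1 transcription factor.

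Total counts per library ran between 6893026 and 10604251, so that 3 counts, the limit that a count of 0 allows, corresponded to between 0.283 and 0.435 counts per 1000000 counts of the library total (CPM). All other CPM values are scaled to the counts in tested genes after TMM normalization. FOSL1 itself averaged 62.5 ± 15.2 CPM with FOSL1sh3 and 64.6 ± 6.97 CPM with FOSL1sh10, against 247 ± 61.1 CPM with GFPsh (SD, n = 3 each). By the fitted fold changes 25.3% of the GFPsh level was left with FOSL1sh3 and 26.1% with FOSL1sh10. For FOSL1sh3 against FOSL1sh10 the log2 fold change of FOSL1 was -0.05 (95% interval -0.46 to 0.36, edgeR adjusted p = 0.90). The 8 glandular epithelium markers listed for the line, keratins, EPCAM, CDH1, SOX9 and MUC1, were all read in all groups. Their summed level was 12600 to 14090 CPM with FOSL1sh3 and 11220 to 13230 CPM with FOSL1sh10, against 11150 to 12020 CPM with GFPsh. The 8 granulocyte markers, the other cell type best known for CEACAM proteins, summed to 0.289 to 0.821 CPM with FOSL1sh3 and 0.306 to 0.856 CPM with FOSL1sh10, against 0.276 to 0.563 CPM with GFPsh, and none passed the filter. The 6 markers of absorptive colon epithelium reached at most 0.636 CPM in sum in any library, and none passed the filter.

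CEACAM6 spans chromosome 19, 41750977 to 41772208 on the plus strand of hg38, with CEACAM5 upstream on the same strand at 41708585 to 41729798 and CEACAM7 next to it on the minus strand at 41673307 to 41706976. These 3 GPI-anchored members are neighbours. The 250 bases before the RefSeq start of each are shown because CEACAM6 was abundant, CEACAM5 scarce and CEACAM7 unread, although the stretches resemble each other closely. They were taken from RefSeq (GRCh38.p14), where entries were matched for 4 of the 5 genes: chr19:41755280-41755529 on the plus strand for CEACAM6, chr19:41708376-41708625 on the plus strand for CEACAM5 and chr19:41688271-41688520 on the minus strand for CEACAM7, each written 5′ to 3′ along its gene. The spans above are those of the annotation used for counting, whose outermost starts differ from the RefSeq starts. The stretches of CEACAM6 and CEACAM7 lie inside their spans, as does that of CEACAM1, and the stretch of CEACAM5 overlaps the start of its span. The bases before the outermost starts of CEACAM6, CEACAM7 and CEACAM1 were therefore not searched. Capitals mark the E-box and GC box letters that a search found.
CEACAM6: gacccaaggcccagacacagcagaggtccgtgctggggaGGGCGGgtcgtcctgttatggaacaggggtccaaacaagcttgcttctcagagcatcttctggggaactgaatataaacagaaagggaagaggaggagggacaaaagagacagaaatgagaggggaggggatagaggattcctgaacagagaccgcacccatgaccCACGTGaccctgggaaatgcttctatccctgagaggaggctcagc
CEACAM5: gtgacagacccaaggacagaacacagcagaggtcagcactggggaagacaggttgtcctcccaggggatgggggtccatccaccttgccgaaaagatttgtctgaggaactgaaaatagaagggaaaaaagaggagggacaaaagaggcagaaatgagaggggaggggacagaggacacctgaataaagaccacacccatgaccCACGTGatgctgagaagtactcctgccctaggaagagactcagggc
CEACAM7: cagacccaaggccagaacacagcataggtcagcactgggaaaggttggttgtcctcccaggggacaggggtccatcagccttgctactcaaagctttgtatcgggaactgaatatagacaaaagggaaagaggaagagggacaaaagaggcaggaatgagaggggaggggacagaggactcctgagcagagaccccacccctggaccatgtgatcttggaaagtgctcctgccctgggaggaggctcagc

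Aligned with each other, the stretches of CEACAM5 and CEACAM6 were identical at 74.6% of 260 aligned columns, those of CEACAM7 and CEACAM5 at 80.5% of 256 and those of CEACAM7 and CEACAM6 at 79.9% of 254. The stretch of CEACAM1 was 68.2% identical with that of CEACAM6. An E-box, CACGTG, stood at -46 to -41 from the start of CEACAM5 and at -45 to -40 from that of CEACAM6, and in neither of the other 2 stretches. Across all 35116 RefSeq stretches of the same length, 6.34% hold it. A GC box, GGGCGG on either strand (CCGCCC on the other), stood at -211 to -206 of CEACAM6 and, on the opposite strand, at -52 to -47 of CEACAM1, and 42.6% of all stretches hold one. The AP-1 site, TGACTCA or TGAGTCA, which read as each other on the opposite strands, was in none of the 4 stretches and in 4.2% of all, and the cAMP response element, TGACGTCA, the same on both strands, was in none of the 4 and in 1.65% of all. No motif overlapped another in these stretches. A match describes the letters only, and a missing match says only that they are not in this window.

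CEACAM6 had 231, 362 and 225 counts in the FOSL1sh3 libraries and 235, 378 and 440 in the FOSL1sh10 libraries, against 572, 799 and 739 in the GFPsh libraries. On the CPM scale these were 23.7, 52.2 and 28.6 with FOSL1sh3 and 33.5, 42.7 and 44.8 with FOSL1sh10, against 78.9, 89.9 and 81.5 with GFPsh. Every hairpin library lay below every GFPsh library, the second FOSL1sh3 library stood above the other two of its group, and the 2 hairpin groups overlapped. The group means were 34.9 ± 15.2 CPM with FOSL1sh3 and 40.4 ± 6.02 CPM with FOSL1sh10, against 83.4 ± 5.77 CPM with GFPsh (SD, n = 3 each). The fitted log2 fold change was -1.27 (SE 0.216) for FOSL1sh3 against GFPsh and -1.04 (SE 0.214) for FOSL1sh10 against GFPsh, which leaves 41.5% and 48.5% of the GFPsh level. The mean of both hairpins stood at -1.16 (SE 0.178), or 44.9%. In bulk RNA, fewer cells expressing a gene and less of its RNA per cell cannot be told apart. Both comparisons use the same GFPsh libraries, so they are not independent of each other.

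The comparison between the hairpins was not itself named in the choice of genes. A choice for being lower with both hairpins can still favour genes on which they agree, so this test is not independent of it. For CEACAM6 the log2 fold change of FOSL1sh3 against FOSL1sh10 was -0.22 (SE 0.218, 95% interval -0.68 to 0.23, edgeR adjusted p = 0.534). With the second FOSL1sh3 library left out it became -0.63 (edgeR adjusted p = 0.0209), so the size of the CEACAM6 decrease with FOSL1sh3 relative to FOSL1sh10 turned on 1 library.

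**Figure D1:**
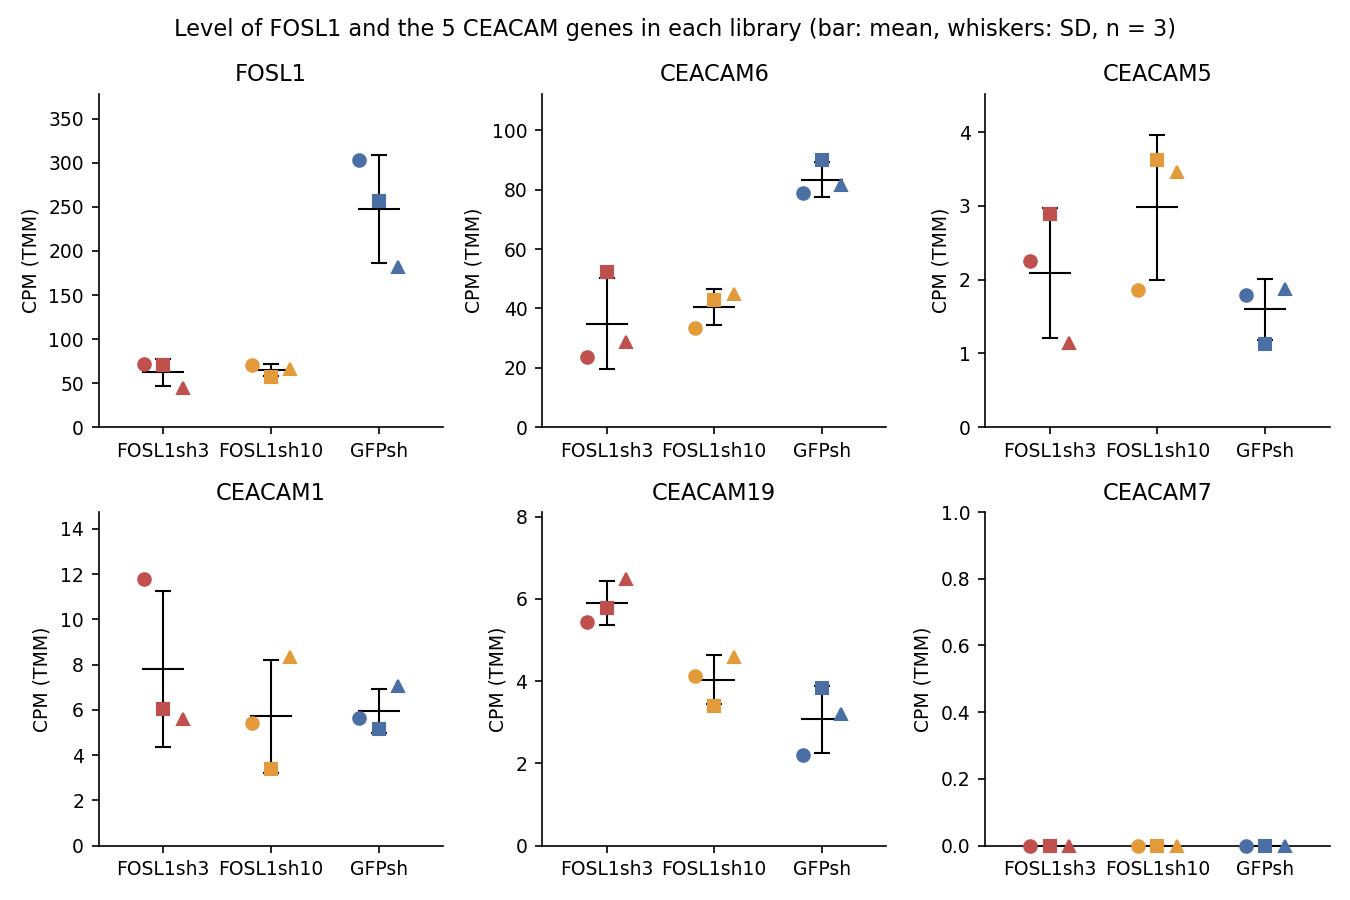
Level of FOSL1 and of each of the 5 CEACAM genes in CPM after TMM scaling (y axis, linear, from 0, a scale of its own in each panel) in the FOSL1sh3, FOSL1sh10 and GFPsh libraries; circles, squares and triangles are replicates 1, 2 and 3, the long bar is the mean and the whiskers 1 SD. CEACAM6 lies between 23.7 and 52.2 CPM in the hairpin libraries and between 78.9 and 89.9 CPM in the GFPsh libraries, while CEACAM5 and CEACAM1 overlap between all groups and CEACAM7 sits at 0.

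CEACAM5, the antigen measured in blood as CEA, was close to the lower limit of what these libraries read. It had 22, 20 and 9 counts with FOSL1sh3 and 13, 32 and 34 counts with FOSL1sh10, against 13, 10 and 17 counts with GFPsh. The levels were 2.10 ± 0.881 CPM with FOSL1sh3 and 2.98 ± 0.977 CPM with FOSL1sh10, against 1.6 ± 0.411 CPM with GFPsh (SD, n = 3 each). The libraries of FOSL1sh3 overlapped those of GFPsh, and so did those of FOSL1sh10, through the first FOSL1sh10 library. The log2 fold change was 0.39 (SE 0.434, edgeR adjusted p = 0.609) for FOSL1sh3 against GFPsh and 0.92 (SE 0.415, 95% interval 0.05 to 1.79, edgeR adjusted p = 0.229) for FOSL1sh10 against GFPsh. Neither passed the threshold of 0.05 over all tested genes. For FOSL1sh3 against FOSL1sh10 it was -0.53 (SE 0.403, edgeR adjusted p = 0.416). CEACAM7, known from colon epithelium, had 0 counts in all 9 libraries and was too low to test, which allows at most 3 counts per library at this depth.

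CEACAM1, the transmembrane member with an inhibitory tail, had 115, 42 and 44 counts with FOSL1sh3 and 38, 30 and 82 counts with FOSL1sh10, against 41, 46 and 64 counts with GFPsh. The first FOSL1sh3 library and the third FOSL1sh10 library were high, at 11.8 and 8.36 CPM, and the other 7 libraries lay between 3.39 and 7.05 CPM with all groups overlapping. The group means were 7.82 ± 3.46 CPM with FOSL1sh3 and 5.72 ± 2.5 CPM with FOSL1sh10, against 5.96 ± 0.976 CPM with GFPsh (SD, n = 3 each). The log2 fold change was 0.41 (95% interval -0.28 to 1.10, edgeR adjusted p = 0.462) for FOSL1sh3 against GFPsh and -0.05 (95% interval -0.76 to 0.65, edgeR adjusted p = 0.959) for FOSL1sh10 against GFPsh. No direction can be given for this gene: without the first FOSL1sh3 library the value for FOSL1sh3 against GFPsh was -0.04. Counts per gene also do not separate the long-tailed and short-tailed CEACAM1 isoforms.

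CEACAM19, a transmembrane member of little known function, lies apart from the others on chromosome 19 at 44662278 to 44684359 on the plus strand. It had 53, 40 and 51 counts with FOSL1sh3 and 29, 30 and 45 counts with FOSL1sh10, against 16, 34 and 29 counts with GFPsh. On the CPM scale these were 5.44, 5.77 and 6.49 with FOSL1sh3 and 4.14, 3.39 and 4.59 with FOSL1sh10, against 2.21, 3.83 and 3.20 with GFPsh. All FOSL1sh3 libraries lay above all others, whereas FOSL1sh10 overlapped GFPsh. The means were 5.90 ± 0.537 CPM with FOSL1sh3 and 4.04 ± 0.602 CPM with FOSL1sh10, against 3.08 ± 0.816 CPM with GFPsh (SD, n = 3 each). The log2 fold change was 0.92 (SE 0.286, edgeR adjusted p = 0.0455) for FOSL1sh3 against GFPsh, past the threshold, and 0.38 (SE 0.294, edgeR adjusted p = 0.534) for FOSL1sh10 against GFPsh, not past it. The difference between the hairpins, 0.54 for FOSL1sh3 against FOSL1sh10, did not pass (edgeR adjusted p = 0.212), so CEACAM19 is not shown to differ between them. The call with FOSL1sh3 was at the edge of the threshold: it was lost without any 1 of the 9 libraries (edgeR adjusted p between 0.0531 and 0.169), while the log2 fold change stayed between 0.76 and 1.10.

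**Figure D2:**
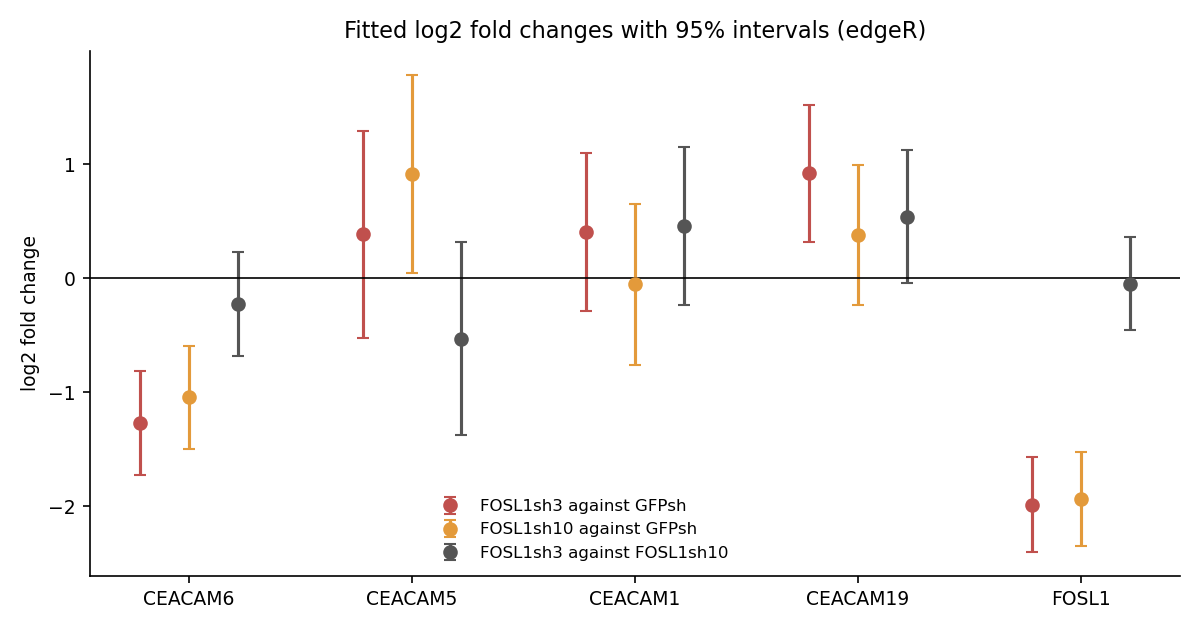
Fitted log2 fold change (y axis) with its 95% interval for the 4 tested CEACAM genes and FOSL1 in FOSL1sh3 against GFPsh, FOSL1sh10 against GFPsh and FOSL1sh3 against FOSL1sh10. CEACAM6 lies below 0 with either hairpin (-1.27 and -1.04), CEACAM19 lies above 0 with FOSL1sh3 (0.92), and the intervals of CEACAM1 cross 0 in every comparison.

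CEACAM6 is left out of the calls against GFPsh, since the choice of genes used those contrasts. Set against all genes, 1 of the other tested members was called higher with FOSL1sh3 (CEACAM19), where 5.21% of 12814 tested genes were. None of them was called lower, where 5.65% were. With FOSL1sh10 none of them was called higher or lower, where 3.13% and 2.15% of tested genes were. For the mean of both hairpins against GFPsh none was called, against 3.25% higher and 2.97% lower among tested genes. The choice may have used these contrasts for the other members too, CEACAM19 included, so nothing is read from these counts. Between FOSL1sh3 and FOSL1sh10, edgeR called 0 of the 4 tested members, against 12.7% of tested genes, and none reached an unadjusted p under 0.05. DESeq2 and limma-voom also called 0 of 4 there. For CEACAM6 the choice of genes can favour this outcome. The median log2 fold change over all tested genes was 0.01 with FOSL1sh3 and 0.00 with FOSL1sh10.

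Per kilobase of exon, CEACAM6 stood at 27.3 CPM in GFPsh, above 86.9% of tested genes, whose median was 3.14 CPM per kilobase. CEACAM1 had 1.08, CEACAM19 0.591 and CEACAM5 0.477 CPM per kilobase in GFPsh, each below the median. In the same order the 4 genes had 11.4, 1.42, 1.13 and 0.626 CPM per kilobase with FOSL1sh3 and 13.2, 1.04, 0.776 and 0.889 with FOSL1sh10, so CEACAM6 came first in every group. The libraries tag transcript ends, so a level per length may understate long transcripts. In GFPsh the libraries of CEACAM6 and CEACAM1 did not overlap on this scale, nor did those of CEACAM1 with the other two genes, whereas CEACAM19 and CEACAM5 overlapped.

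The make-up of the family's counts differed between the groups. CEACAM6 took 54.9%, 78.0% and 68.4% of the counts of the 5 genes in the FOSL1sh3 libraries and 74.6%, 80.4% and 73.2% in the FOSL1sh10 libraries, against 89.1%, 89.9% and 87.0% in the GFPsh libraries. Every hairpin library was below every GFPsh library, and the first FOSL1sh3 library, where CEACAM1 was high, was the lowest. The Wilson 95% interval of that library was 50.1% to 59.6%. The hairpin library with the highest share, the second FOSL1sh10 library, had 76.6% to 83.8%, and the lowest GFPsh library 84.6% to 89.1%. These intervals cover counting error only. The group means were 67.1 ± 11.6% with FOSL1sh3 and 76.1 ± 3.83% with FOSL1sh10, against 88.7 ± 1.47% with GFPsh (SD, n = 3 each). This share follows in the main from the CEACAM6 level that the choice of genes used. The other 4 genes together stood at 15.8 ± 3.28 CPM with FOSL1sh3 and 12.7 ± 3.21 CPM with FOSL1sh10, against 10.6 ± 1.31 CPM with GFPsh (SD, n = 3 each).

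**Figure D3:**
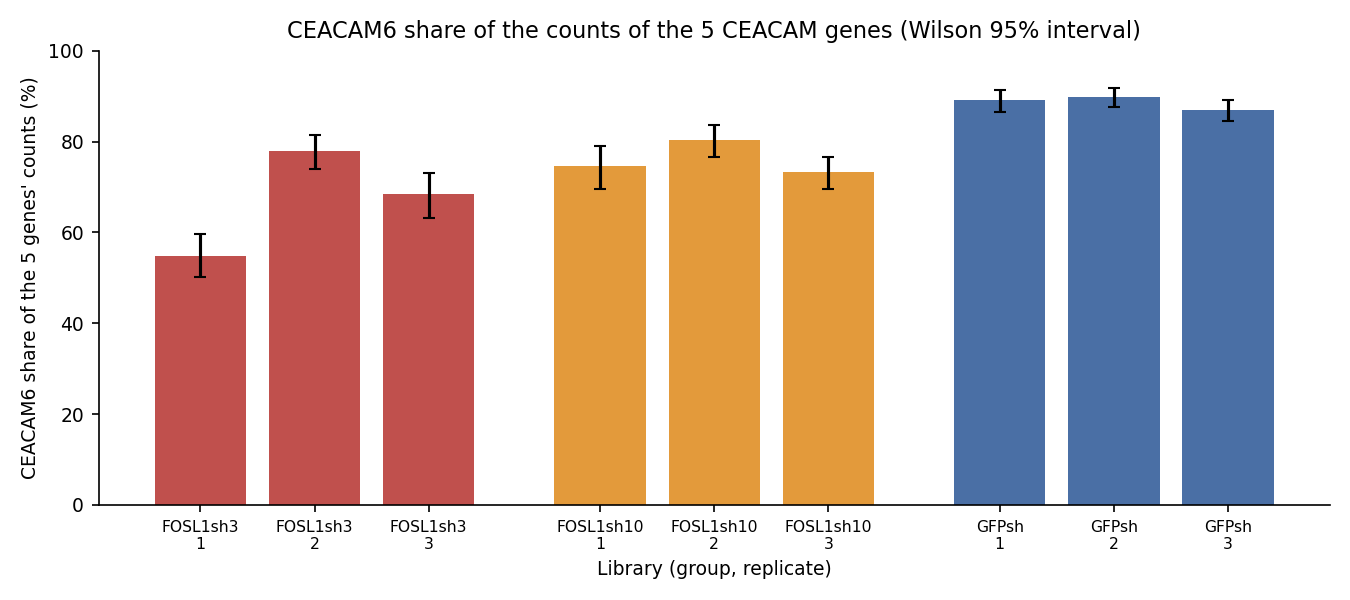
Share of CEACAM6 in the counts of the 5 CEACAM genes (y axis, percent, from 0 to 100) in each library, with its Wilson 95% interval as whiskers, for FOSL1sh3, FOSL1sh10 and GFPsh. The hairpin libraries lie between 54.9% and 80.4% and the GFPsh libraries between 87.0% and 89.9%.

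Near copies in the family can trade reads. Of all 50-base words in the GENCODE 29 transcripts of each gene, 6.99% of those of CEACAM6 also occur in transcripts of another gene, 16.4% of those of CEACAM5, 3.29% of those of CEACAM1, 1.84% of those of CEACAM19 and 0% of those of CEACAM7. CEACAM5 and CEACAM6 share 40 words, CEACAM1 and CEACAM6 share 35, and CEACAM1 and CEACAM3 share 86. Most words that CEACAM5 shares, 529 of 570, are with AC243967.1, an annotated transcript unit on the same strand that overlaps 16.2% of the CEACAM5 exon bases and 5.6% of those of CEACAM6 and had 0 counts in every library. In the last 500 bases of the longest coding transcript, which this 3′-end method reads most, CEACAM6, CEACAM1, CEACAM7 and CEACAM19 share 0 of 451 words and CEACAM5 shares 2. Reads that fall on several genes are left out by the counting program unless it is told otherwise, and no such option is recorded, so a loss of counts in CEACAM5 and CEACAM6 is possible. Summing CEACAM1, CEACAM5, CEACAM6 and CEACAM7, which cannot trade reads with each other once added, gave 44.8 ± 14.2 CPM with FOSL1sh3 and 49.1 ± 7.95 CPM with FOSL1sh10, against 91.0 ± 4.96 CPM with GFPsh (SD, n = 3 each). The counting did not use strand. CEACAM1 shares 185 exon bases (3.3%) with LIPE-AS1 on the opposite strand, and CEACAM19 shares 121 (2.3%) with PVR on its own strand. These are shares of exon bases, not of reads, so they do not bound the counts affected. PVR ends at 44663583, past the start of CEACAM19. It averaged 66.7 CPM with FOSL1sh3 and 53.5 CPM with FOSL1sh10, against 55.05 CPM with GFPsh. How many counts of CEACAM1 and CEACAM19 the overlaps affect was not tested.

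Few counts fell on the rest of the family. Of 19 other CEACAM genes and pseudogenes, 13 had 0 counts in every library and none passed the filter. CEACAM3 and CEACAM8, granulocyte members, reached at most 3 counts and 1 count in a library. The pseudogene CEACAM22P had 6, 3 and 7 counts with FOSL1sh3 and 0, 2 and 1 counts with FOSL1sh10, against 10, 10 and 19 counts with GFPsh. Its GFPsh counts were above all hairpin counts, but at 0 to 19 counts a library it did not pass the filter. When all genes were kept, edgeR gave an adjusted p of 0.00166 for FOSL1sh10 against GFPsh and 0.367 for FOSL1sh3 against GFPsh. The simulated data held only genes that passed the filter, so p-values of that fit were not checked and no call is made for CEACAM22P. Among the 11 PSG genes, which encode secreted relatives made by the placenta, PSG4 alone was tested. It averaged 3.13 ± 0.981 CPM with FOSL1sh3 and 1.99 ± 0.658 CPM with FOSL1sh10, against 1.54 ± 0.487 CPM with GFPsh (SD, n = 3 each), with log2 fold changes of 1.05 (edgeR adjusted p = 0.102) and 0.40 (edgeR adjusted p = 0.669). PSG5, under the filter, had 20, 7 and 8 counts with FOSL1sh3 and 1, 2 and 6 counts with FOSL1sh10, against 0, 6 and 1 counts with GFPsh.

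The calls among tested genes around the members were all for higher levels. Of 21 tested genes within 250 kb of a member, 2 were called higher and 0 lower with FOSL1sh3, and 1 higher and 0 lower with FOSL1sh10. Of all tested genes 5.21% were called higher and 5.65% lower with FOSL1sh3, and 3.13% higher and 2.15% lower with FOSL1sh10, so 0 lower calls among 21 genes is near the background. For the mean of both hairpins 3 were called higher and 0 lower, against 3.25% and 2.97% of all tested genes. The higher calls are not fewer than these shares, and with so few calls nothing is read from them. Their median log2 fold change was 0.23 with FOSL1sh3 and 0.09 with FOSL1sh10. Next to CEACAM6, RPS19, a ribosomal protein gene whose start lies 108.9 kb away, had log2 fold changes of 0.19 with FOSL1sh3 and -0.19 with FOSL1sh10, and ARHGEF1, at 132.2 kb, had 0.24 and 0.29. RABAC1, at 208.4 kb, which encodes a RAB-binding protein, averaged 90.4 ± 15.6 CPM with FOSL1sh3 and 80.8 ± 0.737 CPM with FOSL1sh10, against 61.3 ± 6.61 CPM with GFPsh (SD, n = 3 each), and rose with FOSL1sh3 (log2 fold change 0.56, edgeR adjusted p = 0.0204). BCL3, which encodes a nuclear IkB-like protein and lies 85.4 kb from CEACAM19, rose with FOSL1sh10 by 0.78 (edgeR adjusted p = 0.0211) and stood at 0.43 with FOSL1sh3 (edgeR adjusted p = 0.162). The gene overlapping CEACAM19, PVR, which encodes the poliovirus receptor, had log2 fold changes of 0.27 and -0.04, and LIPE-AS1, overlapping CEACAM1, had 0.79 and 0.55, none past the threshold.

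**Figure D4:**
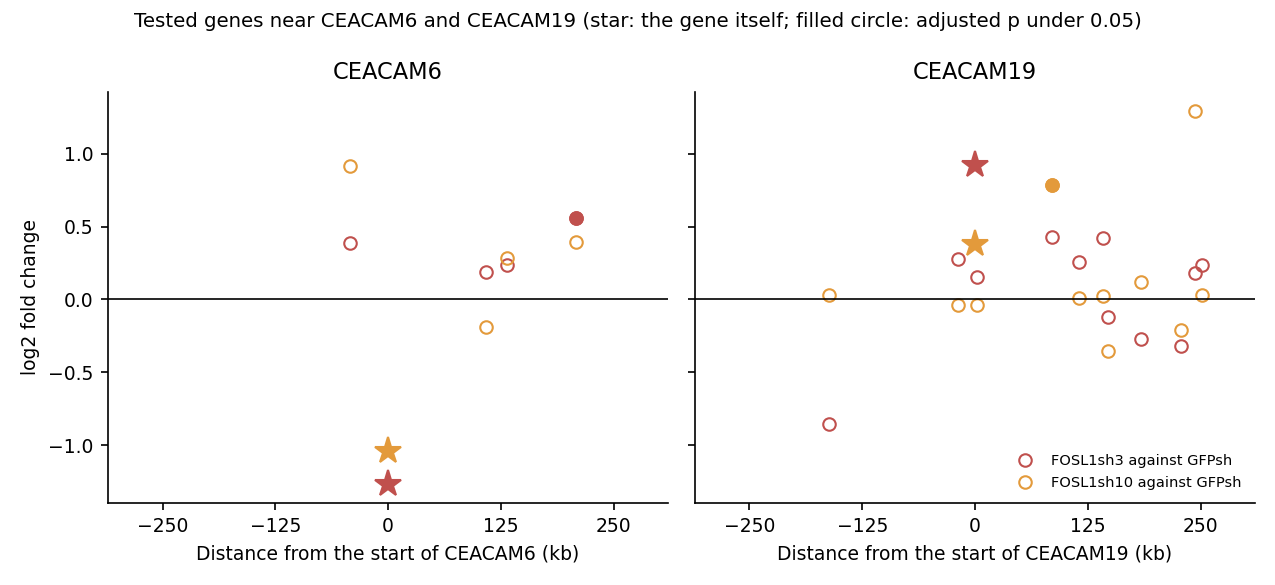
Log2 fold change (y axis) of tested genes against the distance in kb (x axis, along the chromosome) of their start from that of CEACAM6 or CEACAM19, for FOSL1sh3 against GFPsh and FOSL1sh10 against GFPsh; stars are the named gene itself, and filled circles have an adjusted p under 0.05. CEACAM6 (-1.27 and -1.04) lies below each of its tested neighbours, and no filled circle lies below 0.

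GPI-anchored CEACAM proteins depend on the enzymes that build and remodel the anchor, and CEACAM proteins signal through surface and cytoplasmic partners. The gene lists here and in the next paragraphs were chosen with earlier results of these data known. Their calls and p-values may therefore not be independent of the choice, and nothing is read from the counts of calls. Of 28 genes of GPI anchor synthesis and remodelling, 24 were tested and edgeR called 0 with either hairpin, as did DESeq2 and limma-voom, while 7 with FOSL1sh3 and 3 with FOSL1sh10 had an unadjusted p under 0.05. Their median log2 fold change was 0.09 with FOSL1sh3 and -0.08 with FOSL1sh10. For FOSL1sh3 against FOSL1sh10, edgeR called 3 of the 24, all higher, where 12.7% of tested genes were called either way. The lowest p for the mean of both hairpins was that of PIGK, the catalytic subunit of the enzyme that attaches the anchor. It averaged 11 ± 1.74 CPM with FOSL1sh3 and 12.3 ± 1.36 CPM with FOSL1sh10, against 16.3 ± 1.51 CPM with GFPsh (SD, n = 3 each), with log2 fold changes of -0.57 (edgeR adjusted p = 0.0649) and -0.41 (edgeR adjusted p = 0.252).

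Of 24 binding and signalling partners of CEACAM proteins, 21 were tested, 2 rose and 2 fell with FOSL1sh3, and 0 rose and 2 fell with FOSL1sh10. Over all tested genes 5.21% rose and 5.65% fell with FOSL1sh3, and 3.13% rose and 2.15% fell with FOSL1sh10. CAV1, caveolin of surface membrane pits, averaged 521 ± 69.1 CPM with FOSL1sh3 and 322 ± 23.2 CPM with FOSL1sh10, against 741 ± 43.6 CPM with GFPsh (SD, n = 3 each), and fell with both hairpins, with log2 fold changes of -0.51 and -1.20 (edgeR adjusted p = 0.0256 and 3.34e-05). It also differed between the hairpins, by 0.70 for FOSL1sh3 against FOSL1sh10 (edgeR adjusted p = 0.00338). LYN, a SRC-type kinase, fell with FOSL1sh10 by 0.75 (edgeR adjusted p = 0.013) and stood at -0.44 with FOSL1sh3. PXN, the focal adhesion adaptor paxillin, rose with FOSL1sh3 by 0.58 (edgeR adjusted p = 0.0232) and stood at 0.40 with FOSL1sh10. The other 2 calls, named after their values were seen, are of direct partners of the CEACAM1 tail: with FOSL1sh3 the phosphatase gene PTPN11 fell by 0.74 (edgeR adjusted p = 0.0382) and the filamin gene FLNA rose by 0.72 (edgeR adjusted p = 0.0117). Of 7 RNA-binding proteins tied to CEACAM1 or epithelial splicing, edgeR called 0 with either hairpin, as did DESeq2 and limma-voom, with 2 at an unadjusted p under 0.05 in each. For FOSL1sh3 against FOSL1sh10, edgeR called 1 of the 7, where 12.7% of tested genes were called. HNRNPL stood at -0.33 with FOSL1sh3 and -0.52 with FOSL1sh10.

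Of 16 transcription factors of epithelium or of CEACAM promoters, 14 were tested, 1 rose and 1 fell with FOSL1sh3, and 3 rose and 0 fell with FOSL1sh10. The shares over all tested genes were 5.21% and 5.65% with FOSL1sh3 and 3.13% and 2.15% with FOSL1sh10, and the counts with FOSL1sh3 are near them. SMAD3, a transducer of TGF-beta signals, averaged 82.9 ± 3.14 CPM with FOSL1sh3 and 80.9 ± 7.24 CPM with FOSL1sh10, against 53.7 ± 4.80 CPM with GFPsh (SD, n = 3 each), and rose with both by 0.63 and 0.59 on the log2 scale (edgeR adjusted p = 0.00697 and 0.0125). IRF1, an interferon response factor, rose with FOSL1sh10 by 0.75 (edgeR adjusted p = 0.00217) and stood at 0.07 with FOSL1sh3. The calls named after their values were seen were KLF4, which rose with FOSL1sh10 by 1.03 (edgeR adjusted p = 0.00147), and SP3, which fell with FOSL1sh3 by 1.42 (edgeR adjusted p = 0.0176). For FOSL1sh3 against FOSL1sh10, edgeR called 4 of the 14, all lower, where 12.7% of tested genes were called either way. KLF4 and IRF1 were among these, at -1.17 and -0.68 (edgeR adjusted p = 0.00041 and 0.00327).

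Of 20 other adhesion molecules of the immunoglobulin superfamily, 19 were tested, 3 rose and 2 fell with FOSL1sh3, and 2 rose and 1 fell with FOSL1sh10, with medians of -0.02 and -0.04 on the log2 scale. All tested genes also split both ways, with 5.21% higher and 5.65% lower with FOSL1sh3 and 3.13% higher and 2.15% lower with FOSL1sh10. This list too was chosen with earlier results known, so the p-values of its genes may not be independent of the choice. L1CAM, a neural and carcinoma adhesion molecule, averaged 22.1 ± 4.79 CPM with FOSL1sh3 and 19.8 ± 2.59 CPM with FOSL1sh10, against 6.71 ± 0.892 CPM with GFPsh (SD, n = 3 each), and rose by 1.71 and 1.56 (edgeR adjusted p = 9.62e-05 and 0.00016). MCAM, also called CD146, rose by 0.76 with FOSL1sh3 and 1.24 with FOSL1sh10 (edgeR adjusted p = 0.00245 and 2.3e-05). IGSF9 rose with FOSL1sh3 by 1.51 (edgeR adjusted p = 0.0216) and stood at 1.06 with FOSL1sh10. The falls, named after their values were seen, were NECTIN3 (-1.95) and ALCAM (-0.81) with FOSL1sh3 and NECTIN1 (-0.61) with FOSL1sh10. Among the 8 glandular markers, 2 were called higher with FOSL1sh3 and 1 with FOSL1sh10, and 0 lower with either. For FOSL1sh3 against FOSL1sh10, 2 were called higher and 2 lower, where 12.7% of tested genes were called either way. MUC1 rose with FOSL1sh3 by 0.88 (edgeR adjusted p = 0.00124) and stood at 0.10 with FOSL1sh10. KRT7 rose by 0.46 with FOSL1sh3 and 0.71 with FOSL1sh10 (edgeR adjusted p = 0.0432 and 0.00456). KRT7 thus stood higher with both hairpins, where CEACAM6 was lower, and the part of these markers in the CEACAM6 values was not tested.

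Across the 9 libraries and 9816 genes with a symbol and a mean of at least 30 counts, the profile most like that of CEACAM6 (Pearson r of log2 CPM, prior count 2) was that of ADSS2, an enzyme of adenine nucleotide synthesis, with r = 0.974. It averaged 11.6 CPM with FOSL1sh3 and 11.6 CPM with FOSL1sh10, against 23.7 CPM with GFPsh. C6orf141 followed at 0.965, MINDY3, a deubiquitinase gene, at 0.955, CYP2R1, the vitamin D 25-hydroxylase gene, at 0.946 and ABHD17C, a depalmitoylase gene, at 0.944. All 5 had lower mean levels with each hairpin than with GFPsh, which follows in the main from choosing them for likeness to CEACAM6. Of these genes edgeR called ADSS2 lower with both hairpins and ABHD17C lower with FOSL1sh3 only. C6orf141, MINDY3 and CYP2R1 were called with neither. By Spearman's rho ADSS2 came at rank 4, with 0.95, behind TMPO (0.983), CREBZF (0.967) and FJX1 (0.967), and CYP2R1 and ABHD17C came at ranks 43 and 64, so the order depends on the measure. FOSL1 had r = 0.850 with CEACAM6 (rho 0.60), CEACAM1 -0.303 and CEACAM19 -0.682. The 9 libraries fall into 3 groups and share their processing, and these values describe them only.

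**Figure D5:**
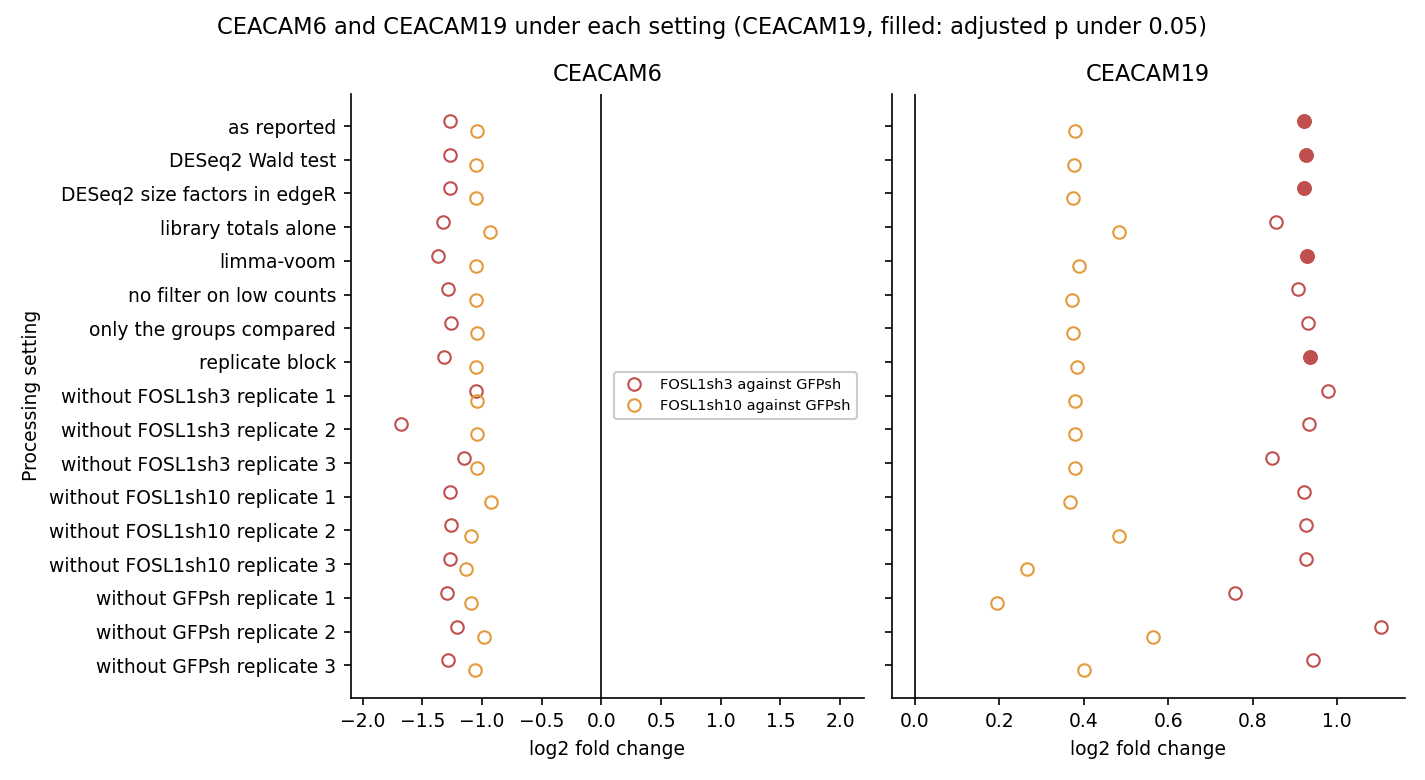
Log2 fold change (x axis) of CEACAM6 and CEACAM19 for FOSL1sh3 against GFPsh and FOSL1sh10 against GFPsh under each processing setting (y axis); for CEACAM19 alone, filled symbols have an adjusted p under 0.05. CEACAM6 lies between -1.68 and -0.93, while CEACAM19 with FOSL1sh3 stays between 0.76 and 1.10 and is filled as reported and in 4 of the 16 other settings.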

How the data were processed

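RNA of 9 samples of EGI-1 cells (RQI above 7, per the labels) was made into MARS-seq libraries, a 3′-end method. Raw counts per gene were deposited by the authors: reads were aligned to hg38 with STAR 2.5.3a, per the submitters' processing notes, and counted over GENCODE 28 exons with featureCounts 1.6.0 without strand, per the file headers. No source states the read length. Replicates were not pooled.

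Counts of 58381 genes, 27513 of them with a count, were fitted in edgeR 4.0.16 (R 4.3.3) with all 9 libraries, group as the only term and TMM scaling, and tested by quasi-likelihood F tests. Genes with under 10 counts (scaled to the median library) in too many libraries, or under 15 in all, were left out, which kept 12814. P-values were adjusted by Benjamini-Hochberg over these, with a threshold of 0.05. The common biological coefficient of variation was 16.4%. Steps were tested on simulated data.

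The members and lists were chosen with earlier results of these data known. Named genes were FOSL1, the members, other CEACAM and PSG genes, up to 4 called genes with the smallest p for the mean of both hairpins from each list and among neighbours within 250 kb (1 where none was called), and the 5 profiles most like CEACAM6. Of the neighbours so named, 1 is not reported here. Alternatives were no filter, library totals, DESeq2 size factors, DESeq2 1.42.0, limma-voom (limma 3.58.1), a replicate block, only the groups compared, each library left out, summed near copies and Spearman's rho.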

Additional observations from a re-analysis of the deposited data

How the results depend on the processing

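CEACAM6 stood below GFPsh in the 16 alternatives for each hairpin, at -1.68 to -1.05 with FOSL1sh3 and -1.13 to -0.93 with FOSL1sh10 on the log2 scale. Its value for FOSL1sh3 against FOSL1sh10 ran between -0.63 and -0.0057 over the libraries left out. The CEACAM19 call with FOSL1sh3 was lost with no filter (0.91), with library totals (0.86) and with only the groups compared (0.93), and over the libraries left out its value ran between 0.76 and 1.10; its lost calls had the same direction. CEACAM1 changed sign: its values over the libraries left out were -0.038 to 0.60 with FOSL1sh3, -0.46 to 0.21 with FOSL1sh10 and -0.045 to 0.32 for the mean of both, and library totals gave 0.051 with FOSL1sh10, where they moved the median of all genes to 0.11. The cause was not tested.

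Genes called over the libraries left out numbered 599 to 1803 for FOSL1sh3 against GFPsh (1392 with all), 347 to 919 for FOSL1sh10 against GFPsh (676), 312 to 1002 for the mean of both (797) and 712 to 1920 for FOSL1sh3 against FOSL1sh10 (1633). Only the groups compared gave 1124 for FOSL1sh10. Library totals moved the share of calls that were higher to 34.0%, 77.5% and 17.6%, against 48.0%, 59.3% and 45.1% with TMM, for FOSL1sh3 against GFPsh, FOSL1sh10 against GFPsh and FOSL1sh3 against FOSL1sh10, and the median of all genes to -0.17 in the last. Deviations of same-numbered libraries correlated at -0.116 to 0.183, and those of libraries with different numbers at -0.165 to 0.156. With 3 libraries a group this cannot decide whether the numbers pair the libraries, and the labels do not say. A replicate block gave 1456, 695, 812 and 1673 calls in the order above. It put CEACAM6 at -1.32 and -1.05 and CEACAM19 with FOSL1sh3 at 0.94. At this depth CEACAM5, CEACAM1 and CEACAM19, at 9 to 115 counts a library, have wide 95% intervals (for FOSL1sh10 against GFPsh, 0.05 to 1.79, -0.76 to 0.65 and -0.24 to 0.996 on the log2 scale), which limits the differences that could be detected.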
